A study of Mus musculus with 8 samples.

Results

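AP-1 is a family of paired transcription factors built from Fos, Jun and Atf proteins, and together with Egr1 and Myc its genes are the best known immediate early genes. Of 10 such genes, namely Fos, Fosb, Fosl1, Fosl2, Jun, Junb, Jund, Atf3, Egr1 and Myc, 9 had a transcript cluster (the unit of the array, which collects the probes of 1 gene) with a single gene symbol, 1 cluster each. Fosb had none and was not analysed here. The genes were chosen by name, with earlier results of these data known. They are 9 of 14860 genes measured with 1 symbol, within 23332 transcript clusters. The tested samples were 4 preparations of exosomes, vesicles released by cells with RNA and protein as cargo, taken from the medium of B16F0 cells after 24 h without serum. The samples set against them were 4 preparations of the B16F0 cells themselves, cultured for 24 h in the same kind of medium. B16F0 is a pigmented mouse melanoma line, so all samples share 1 cell line and serum withdrawal. Each sample was hybridised to 1 whole-transcript exon array, and values are on a log2 scale, where a difference of 1 is 2-fold. The labels number 4 samples in each group without naming separate cultures, so the p-values measure only how far these samples differ from each other, which may be technical. The exosome isolation steps are not described in the labels.

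Fos and Jun proteins pair through a leucine zipper and bind short DNA sites in the control regions of genes of growth, invasion and stress. In resting cells many mRNAs of this group, though not that of Jund, are scarce. Serum, growth factors or stress raise many of them within minutes through the kinases Erk, Jnk and p38. Many of these mRNAs are short-lived because AU-rich elements in them recruit decay proteins. Fosl1 and Fosl2 lack the strong activation domain of Fos and are made later after a stimulus. In melanoma, signals from Braf and Ras are known to keep several of these genes active.

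Values on the exosome arrays spanned a narrower range than on the cell arrays. The 75th percentile of all values minus the median of the chemosensory receptor genes, which stand in for background because such cells are not expected to use them, was 2.93 ± 0.09 on exosome arrays and 4.91 ± 0.08 on cell arrays (mean ± SD, n = 4 each, two-sided exact permutation p = 0.0286, the minimum for 4 against 4). A gene was called above background on an array when its value lay over the 95th percentile of those receptor genes, a threshold that averaged 6.49 ± 0.06 on exosome arrays and 5.74 ± 0.03 on cell arrays (SD, n = 4 each). All 10 melanocyte markers, Tyr, Pmel and Mitf among them, were above background on every exosome and every cell array, with a mean marker level of 9.76 to 9.96 over the exosome arrays and 11.86 to 11.96 over the cell arrays. Of 5 measured leukocyte markers and 5 endothelial markers, 0 were above background on all 4 arrays of a group, and of 6 fibroblast markers 2 were so in exosomes and 2 in cells. Of 4 blood cell and platelet markers, 0 were so in exosomes and 2 in cells. The same mass of cDNA was labelled from each sample, per the labels, so the values speak of shares of the RNA and not of amounts. Because the exosome arrays spanned a narrower range, a lower deposited value need not be a smaller share, which was not tested. Fewer vesicles with an mRNA and fewer copies per vesicle cannot be told apart, nor can fewer expressing cells and less RNA per cell.

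The control regions just before the start of Fos, Jun, Atf3 and Fosl2 are shown because Atf3 and Jun had the largest falls among the genes above background in every sample, Fos was above background in cells only, and Fosl2 was not called. Each is the stretch of 120 bases before the annotated start, in RefSeq's GRCm38.p6 assembly, read 5′ to 3′ on the gene's own strand. Capitals mark matches, on either strand, to TGACGT (the core of the cAMP response element), TGACATCA (a Jun and Atf binding site known from the Jun promoter), TATAAA (the TATA box) and GGGCGG (the GC box bound by Sp1).
Fos, chr12:85473770-85473889, plus strand: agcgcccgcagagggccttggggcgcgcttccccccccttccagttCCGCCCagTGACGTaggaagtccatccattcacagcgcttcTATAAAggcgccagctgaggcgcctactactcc
Jun, chr4:95052223-95052342, minus strand: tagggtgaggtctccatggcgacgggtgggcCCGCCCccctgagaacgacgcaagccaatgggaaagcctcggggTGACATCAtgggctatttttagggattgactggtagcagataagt
Atf3, chr1:191183334-191183453, minus strand: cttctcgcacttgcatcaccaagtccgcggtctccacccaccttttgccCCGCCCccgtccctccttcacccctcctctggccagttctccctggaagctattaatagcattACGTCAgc
Fosl2, chr5:32136352-32136471, plus strand: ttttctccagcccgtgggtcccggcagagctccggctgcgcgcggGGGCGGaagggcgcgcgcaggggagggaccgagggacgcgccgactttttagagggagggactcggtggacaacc

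Within 250 bases before the start, Fos held TGACGT at positions -66 to -61 and TATAAA at -33 to -28, counted back from the start, Atf3 held TGACGT on the opposite strand at -8 to -3, and Jun held TGACATCA at -45 to -38. Of the motifs searched, the Fosl2 window held the GC box only. Of 32851 annotated mouse promoters of the same length, 6.47% held TGACGT, 2.93% held TGACATCA, 12.4% held TATAAA and 32.7% held GGGCGG. The AP-1 site TGANTCA, present in 6.75% of these promoters, and the CArG box bound by serum response factor, present in 1.47%, had no match in the stretch of 250 bases of any of the 7 genes with an entry (Fos, Fosb, Fosl2, Jun, Junb, Jund and Atf3). The search for TGACGT also takes in the full element TGACGTCA, present in 1.55% of promoters, and a match is a description of letters, not of binding. Egr1, Fosl1 and Myc had no entry used here.

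Among the Fos proteins, which cannot pair with themselves and need a Jun partner, Fos fell while Fosl1 and Fosl2 were not called. Fos, the founding member, had array values of 5.42, 5.52, 5.49 and 5.09 in exosomes, against 7.65, 7.41, 7.80 and 7.53 in cells. All 4 exosome values lay below all 4 cell values and below the background threshold of their arrays, so only a bound can be given. Against that threshold, on the deposited scale, Fos was at least 2.15-fold lower in exosomes. The measured means were 5.38 ± 0.20 in exosomes and 7.60 ± 0.17 in cells (SD, n = 4 each, limma adjusted p = 6.84e-07 over all transcript clusters). The bound was not computed under other scalings of the arrays, where it need not hold.

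Fosl2, which encodes Fra-2, a Fos relative without the strong activation domain, had array values of 7.78, 7.84, 8.05 and 8.22 in exosomes, against 8.20, 7.99, 8.06 and 7.78 in cells. The groups overlapped, and every one of the 8 values was above background. The log2 fold change, exosome over cell, was -0.03 ± 0.13 SE with an interval from -0.33 to 0.26 (95%, limma, adjusted p = 0.838). Fosl1, which encodes Fra-1, a factor tied to invasive growth in several tumours, had values of 6.82, 6.75, 6.54 and 6.67 in exosomes, against 6.41, 6.58, 6.68 and 6.57 in cells. These groups also overlapped, and 3 of 4 exosome arrays and 4 of 4 cell arrays were above background. Its log2 fold change was 0.13 ± 0.09 with an interval from -0.08 to 0.34 (limma adjusted p = 0.25).

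All 3 Jun genes were lower in exosomes as deposited, by unequal amounts. Jun, the strongest activator of the family, had array values of 7.36, 7.27, 7.49 and 7.56 in exosomes, against 9.88, 9.72, 9.85 and 9.82 in cells. The groups lay far apart relative to their spread, and Jun fell 5.26-fold (log2 fold change -2.40 ± 0.09 SE, n = 4 each, limma adjusted p = 6.41e-08). Jund, which is expressed steadily in many resting cells, had values of 7.61, 8.05, 8.06 and 8.10 in exosomes, against 9.57, 9.49, 9.53 and 9.44 in cells. Exosome sample 1 was lower than the other 3, and Jund fell 2.94-fold (-1.55 ± 0.12, limma adjusted p = 4.05e-06), or by 1.44 on the log2 scale without that sample.

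Junb, which can oppose Jun on many targets, had array values of 6.81, 6.89, 6.76 and 6.72 in exosomes, against 7.28, 7.32, 7.42 and 7.33 in cells. The groups did not overlap, and Junb fell 1.46-fold as deposited (log2 fold change -0.54 ± 0.07 SE, n = 4 each, limma adjusted p = 0.000144). The sign of that change depended on the scaling of the arrays, with log2 fold changes of 0.63 after quantile normalization and 0.65 after cyclic loess.

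Atf3, a stress-induced factor that pairs with Jun proteins and often represses, had the largest fall among the 6 genes above background on every array, under the deposited scale and 4 other scalings. Its array values were 7.76, 7.59, 7.95 and 7.96 in exosomes, against 10.82, 10.74, 10.86 and 10.79 in cells. All values were above background in both groups, and Atf3 fell 7.93-fold (log2 fold change -2.99 ± 0.10 SE, n = 4 each, limma adjusted p = 4.8e-08). Of all genes measured, 3.10% had a lower log2 fold change than Atf3.

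Egr1, a zinc finger factor switched on by Erk signalling, had array values of 6.37, 6.46, 6.29 and 6.43 in exosomes, against 7.83, 7.67, 7.56 and 7.75 in cells. The groups did not overlap, but only 1 of 4 exosome arrays was above background and the exosome mean of 6.39 lay under the mean threshold. As measured, Egr1 fell 2.49-fold (log2 fold change -1.32 ± 0.08 SE, n = 4 each, limma adjusted p = 1.15e-06). Myc, which pairs with Max and drives ribosome making and cell growth, had values of 7.53, 7.89, 7.79 and 7.66 in exosomes, against 9.68, 9.42, 9.74 and 9.62 in cells. Every value was above background, the groups did not overlap, and Myc fell 3.72-fold (-1.90 ± 0.11, limma adjusted p = 5.76e-07).

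**Figure D1:**
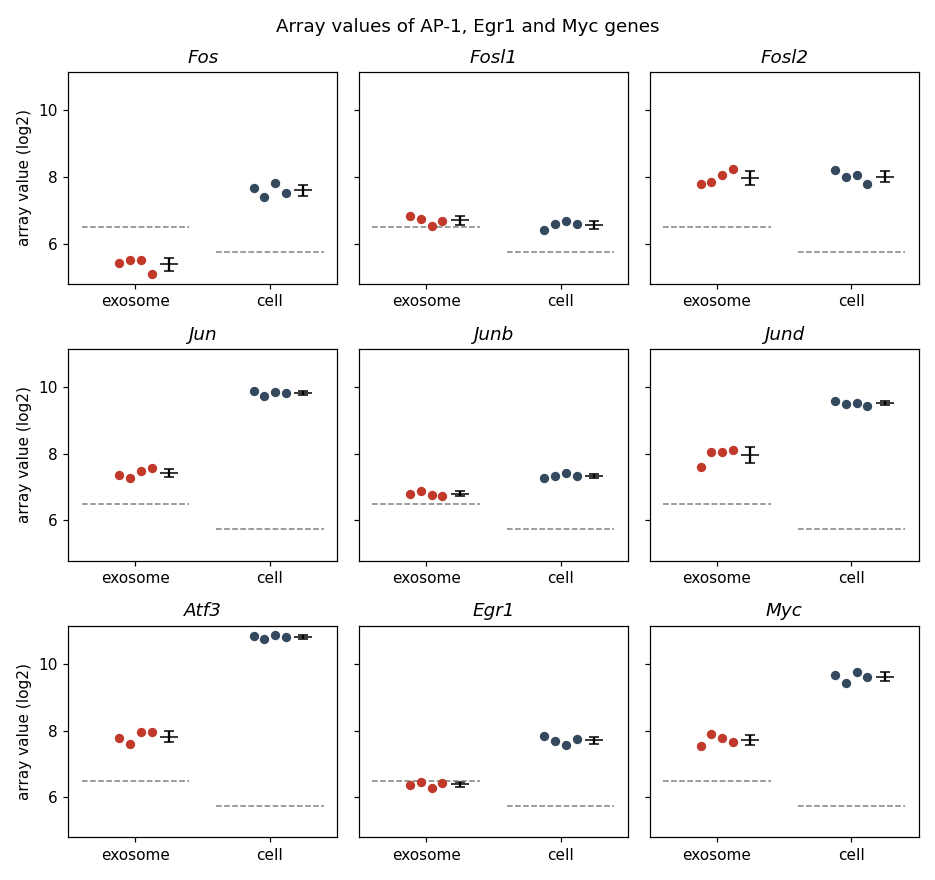
Array values (log2) of the 9 genes in 4 exosome samples (red, left) and 4 cell samples (dark, right), with the mean and SD beside each group and the mean background threshold of the group as a dashed line. Fos lies below the threshold in every exosome sample, Egr1 lies near it there, and Fosl1 and Fosl2 overlap between the groups.

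In all, 7 of the 9 genes were called lower in exosomes and 0 were called higher by limma at an adjusted p below 0.05, and 0 were higher at an unadjusted p below 0.05. Over all transcript clusters 59.3% were called, 42.9% lower and 16.4% higher, and over genes with 1 symbol 52.1% and 14.6%. At a change of at least 2-fold, 6 of the 9 were lower and 0 higher, against 31.1% and 5.43% of all transcript clusters. Every exosome value lay below every cell value for 7 of the 9 and for 42% of all transcript clusters. Another 14.4% of all clusters had exosomes higher without overlap, for 56.4% in either direction. The median log2 fold change of the 9 genes was -1.55, against -0.20 over all transcript clusters. On all 4 exosome arrays 6 of the genes exceeded background, namely Fosl2, Jun, Junb, Jund, Atf3 and Myc, against 35% of genes with 1 symbol, and on all 4 cell arrays 9 did so, against 61.7%.

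Bright genes as a whole were lower in exosomes, so each gene was also set beside those whose mean in cells lay within 0.5 of its own on the log2 scale. This is a rough match, because probes differ in brightness. Of such genes, 59.1% for Fosl1, 83.8% for Junb and 85.2% to 88.1% for the other 7 were called lower, so that the count of 7 falls is close to what genes of these levels showed. Jund, Egr1 and Myc lay near the middle of their peers, with 56.1%, 50.3% and 43.9% of peers having a lower log2 fold change. The other 6 genes lay further out. Atf3 had fallen more than most, with 9.35% of 781 peers lower and a peer median of -1.67. Fos had 12.8% of 1830 peers lower (peer median -1.26), though at background in exosomes, and Jun had 25.8% of 1563 (peer median -1.74). Fosl2 stood at the other end, with 90.4% of 2114 peers lower than its -0.03 and a peer median of -1.42. For Fosl1 84.2% of peers were lower (peer median -0.47), and for Junb 75.3% (peer median -1.11).

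**Figure D2:**
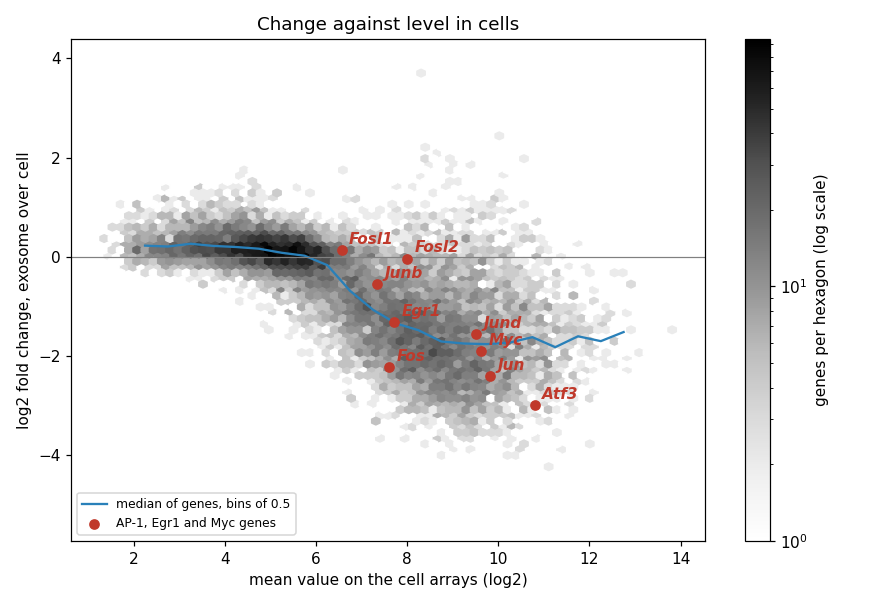
Log2 fold change, exosome over cell, against the mean value on the cell arrays (log2) for 14860 genes (grey hexagons, shade by number of genes on a log scale), with the median of genes in bins of 0.5 (blue line, bins of at least 20 genes) and the 9 genes in red. Fosl2 at -0.03 lies above the line and Atf3 at -2.99 below it, while Egr1 at -1.32 lies on it.

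The narrower range of the exosome arrays makes the scaling matter, so the comparison was repeated after quantile normalization and cyclic loess, which force the arrays to like distributions, and after centring each array on its median or on its background genes. Atf3, Jun, Fos and Myc were called lower under the deposited scale and each of these 4 others. Across the 5 scalings the log2 fold change was -3.58 to -1.61 for Atf3, -2.99 to -0.94 for Jun and -2.49 to -0.45 for Myc. The measured values of Fos gave -2.81 to -1.41, but with its exosome signal at background these are not sizes of its fall. Fosl2 and Fosl1 were called higher after quantile normalization, with 1.27 ± 0.09 SE (limma adjusted p = 7.36e-06) and 1.06 ± 0.11 (limma adjusted p = 6.39e-05), and after cyclic loess, with 1.43 and 1.04. Both were called lower after centring on background genes, with -0.63 and -0.46. Egr1 lost its call after quantile normalization (-0.18) and cyclic loess (-0.14), and Jund after cyclic loess (-0.11). Scaling moved all genes. The median over all clusters, -0.20 on the deposited scale, became 0.05 with quantile normalization and 0.03 with cyclic loess. Centring gave 0.08 on array medians and -0.79 on background genes.

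**Figure D3:**
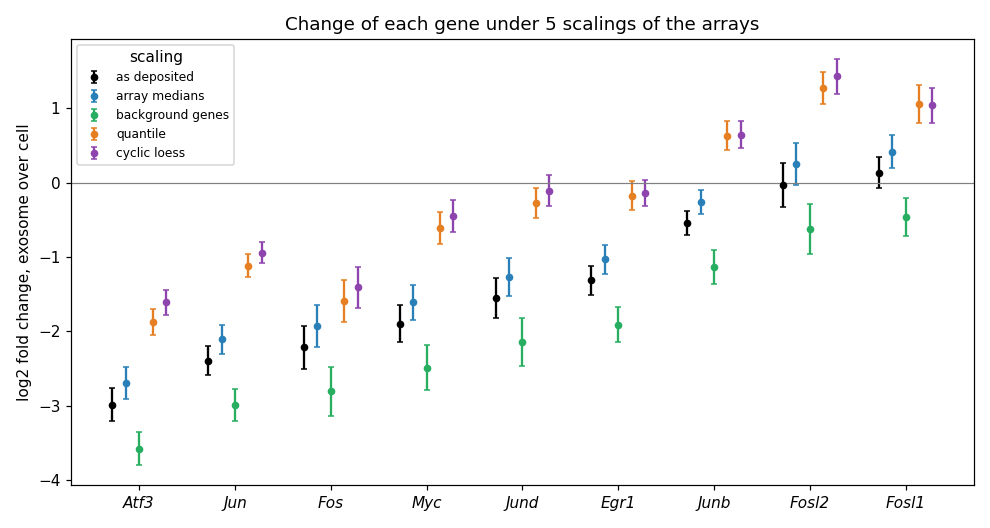
Log2 fold change, exosome over cell, of each gene under 5 scalings of the arrays, with 95% intervals from limma (n = 4 arrays per group). Atf3, Jun, Fos and Myc lie below 0 under all 5, and Junb, Fosl2 and Fosl1 lie on both sides of 0.

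The difference between 2 genes on the same array does not depend on centring, so the changes of the 9 genes were compared in pairs. Of 36 pairs, 33 changed by different amounts (exact permutation test over the 8 arrays, two-sided, p = 0.0286, the minimum for 4 against 4, and adjusted p = 0.0312 over the 36 pairs), with no overlap between the groups. The share of pairs of other genes that would pass was not computed, so this count is not read as particular to these genes. Pairs were not matched for level in cells, and the peer medians ran from -0.47 for Fosl1 to -1.75 for Jund. The differences between genes thus include any that go with level. Of the 28 pairs without Fos, which was at background in exosomes, 26 passed. Egr1, which is in some of these pairs, was above background on only 1 of 4 exosome arrays, so its differences are as measured. Within the Fos family, the pairs of Fos with Fosl2 and with Fosl1 both passed, with Fos the lower, but the sizes of these differences were not measured because Fos had only a bound. Within the Jun family, Jun was below Junb by -1.85 ± 0.11 and below Jund by -0.84 ± 0.11, and Junb was above Jund by 1.01 ± 0.13. The factors Fosl2 and Jun, which can pair with each other, differed by 2.36 ± 0.10 in their log2 fold changes. Fosl2 minus Jun was 0.55 ± 0.10 in exosomes and -1.81 ± 0.16 in cells (SD, n = 4 each), a shift shared by all 4 samples of each group. Atf3 fell further than Jun, with a log2 fold change of Jun minus that of Atf3 of 0.59 ± 0.03 SE.

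The 3 pairs that did not pass were Fos and Jun (exact permutation adjusted p = 0.323), Fosl1 and Fosl2, with a difference in log2 fold change of 0.17 ± 0.19 SE (exact permutation adjusted p = 0.457), and Jund and Egr1, with -0.24 ± 0.13 (exact permutation adjusted p = 0.121). These misses do not show that the genes behaved alike. After quantile normalization 32 pairs passed and after cyclic loess 33, scalings that were added for this test after the data were seen. The order of Fos against Jun and against Atf3 could not be set, since the exosome signal of Fos was at background, and whether those pairs passed changed with the scaling.

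**Figure D4:**
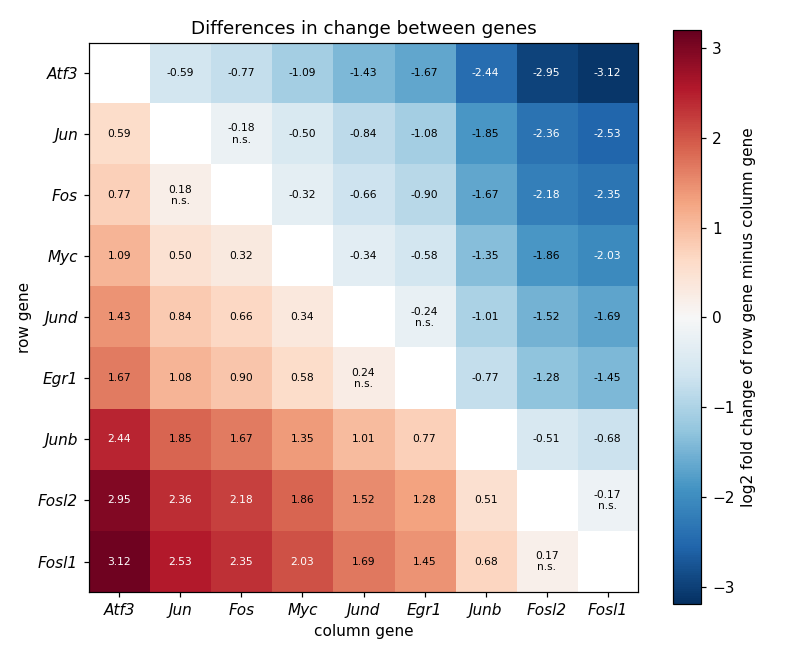
Difference in log2 fold change, exosome over cell, between the gene of the row and the gene of the column, as deposited. Cells marked n.s. are the 3 pairs that did not pass the exact permutation test, and blue in the top rows shows that Atf3 and Jun fell more than Junb, Fosl2 and Fosl1. Values for Fos rest on an exosome signal at background, and those for Egr1 on a signal above background on only 1 of 4 exosome arrays.

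Other immediate early genes were mostly lower too. Of 31 measured, 27 were called lower and 0 higher by limma (1 higher at an unadjusted p below 0.05), with a median log2 fold change of -0.905, and 15 were lower and 5 higher after quantile normalization. Of all genes with 1 symbol 52.1% were lower and 14.6% higher. The share of genes of like level in cells that were lower, averaged over the 31, was 69.3%, against 87.1% of the 31. Ccn1, a secreted matrix protein, fell 11.3-fold as measured (log2 fold change -3.50 ± 0.17 SE), with 1 of 4 exosome arrays above background and an exosome mean of 6.21, under the mean threshold. Id2, an inhibitor of basic helix-loop-helix factors, fell 8.10-fold (-3.02 ± 0.18), and Ier3, a survival factor, fell 7.13-fold (-2.83 ± 0.13). All 3 were lower under each of the 5 scalings. Of the 31 genes, 9 exceeded background on all 4 exosome arrays and 28 on all 4 cell arrays.

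Relatives and partners of AP-1 went both ways, with 9 of 12 lower and 3 higher (median -0.60), and 4 lower and 7 higher after quantile normalization, where the median turned to 0.30. The 75% that were lower compare with 76.8% for genes of like level. Ddit3, a stress factor of the same leucine zipper class, fell 5.16-fold (log2 fold change -2.37 ± 0.13 SE). Nfil3, a leucine zipper repressor, and Crem, a relative of Creb1, were on no exosome array above background. As deposited they were at least 3.12-fold and at least 1.70-fold lower. Creb1, which binds the cAMP response element and switches on Fos, rose 2.03-fold (1.02 ± 0.10) and was higher under each of the 5 scalings. The other transcript cluster of Creb1, with lower values, had a log2 fold change of 0.34 ± 0.07 as deposited. The statement on 5 scalings covers the brighter cluster only.

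Of 19 measured kinase pathway genes upstream of AP-1, 13 were lower and 4 higher (median -0.58), and 4 were lower and 10 higher after quantile normalization, where the median turned to 0.40. The 68.4% that were lower compare with 81.2% for genes of like level. Mapk8, which encodes the Jun kinase Jnk1, and Map3k2, a kinase above it, were above background on no exosome array. As deposited they were at least 2.12-fold and at least 2.32-fold lower. Map3k1, another such kinase, fell 3.29-fold (log2 fold change -1.72 ± 0.08 SE). Mapkapk2, the p38 target that stabilises AU-rich mRNAs, rose 2.23-fold (1.16 ± 0.07) and was higher under each of the 5 scalings. Both corepressors of Egr1 were lower as deposited, Nab2 2.39-fold (-1.26 ± 0.08) and Nab1 1.92-fold (-0.94 ± 0.09). Their signs turned after quantile normalization, with 0.11 for Nab2 and 0.20 for Nab1, and after cyclic loess, with 0.21 and 0.43.

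Of 18 partners and antagonists of Myc, 12 were lower and 1 higher (median -0.72), and 7 were lower and 8 higher after quantile normalization, where the median turned to 0.08. The share lower was 66.7%, against 73.3% for genes of like level. Ruvbl2, a helicase of chromatin complexes that Myc recruits, fell 6.28-fold (log2 fold change -2.65 ± 0.08 SE), and Trrap, a scaffold of the same complexes, fell 4.40-fold (-2.14 ± 0.09). Trrap has 2 transcript clusters, and its value here is of the brighter cluster only. Ruvbl1, the partner of Ruvbl2, was above background on no exosome array and at least 2.98-fold lower as deposited. Mlxip, a glucose-sensing relative, rose 1.48-fold (0.56 ± 0.09), but had -0.03 after centring on background genes. Of 15 measured Myc targets, 13 were lower and 0 higher by limma (0 higher at an unadjusted p below 0.05, median -1.14), and 7 were lower and 5 higher after quantile normalization. The share lower was 86.7%, against 88.2% for genes of like level. Tfrc, the transferrin receptor, fell 15.1-fold (-3.92 ± 0.14), with 3 of 4 exosome arrays above background. Nop58, a ribosome assembly factor, fell 4.47-fold (-2.16 ± 0.08), and Pa2g4, a growth regulator, fell 4.33-fold (-2.12 ± 0.12).

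Of 16 measured AP-1 targets, 7 were lower and 2 higher (median -0.10), with 6 lower and 4 higher after quantile normalization and a median of 0.18 after centring on array medians, and 7 of the 16 were above background on no cell array. The share lower was 43.8%, against 49.8% for genes of like level. Of the 2 called higher, Ereg, a growth factor named here after its values were seen, was above background on no array. Itgav, an integrin chain, fell 11.4-fold (log2 fold change -3.51 ± 0.12 SE), and Hmox1, a heme-degrading stress enzyme, fell 8.68-fold (-3.12 ± 0.14). Timp1, an inhibitor of matrix proteases, was at least 2.40-fold lower as deposited and above background on no exosome array. Ccnd1, the G1 cyclin, rose 1.33-fold (0.41 ± 0.06), but was lower after centring on background genes (-0.19). Proteins that bind AU-rich elements in mRNAs were lower for 9 of 9 genes and higher for 0 by limma (0 at an unadjusted p below 0.05, median -2.11), and after quantile normalization for 8, with 1 higher. Genes of like level were lower in 85.9% of cases. Tia1, a translation repressor, fell 5.31-fold (-2.41 ± 0.08), and Hnrnpd, the decay factor Auf1, fell 5.27-fold (-2.40 ± 0.16), with 2 of 4 exosome arrays above background. Zfp36l1, another decay factor, was above background on no exosome array and at least 4.79-fold lower as deposited.

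**Figure D5:**
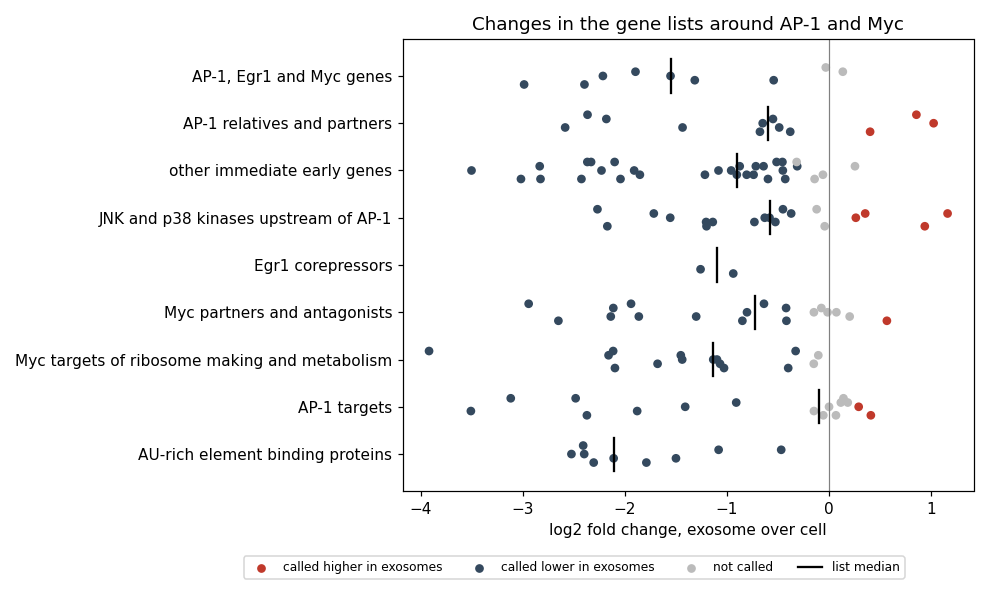
Log2 fold change, exosome over cell, as deposited, of the measured genes of each list, 1 point per gene, with the list median as a black bar. The AU-rich element binding proteins have a median of -2.11. The AP-1 targets have one of -0.10, with 7 of the 16 above background on no cell array. Fosl1 and Fosl2 are the grey points near 0 in the top row. Under quantile normalization the medians of the AP-1 relatives, the kinases, the Egr1 corepressors and the Myc partners lie above 0.

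Some genes of other kinds followed the profiles of Atf3 and Fosl1 closely. Likeness was the root mean square difference over the 8 arrays between log2 profiles, each centred on its own mean, among 14859 other genes. Closest to Atf3 were Sf3b1, a splicing factor (0.047, log2 fold change -2.94), Glt8d1 (0.053) and Kif3a, a kinesin motor (0.055). Glt8d1 and Kif3a were above background on no exosome array, so their likeness to Atf3 rests on background signal there. Closest to Fosl1, the 1 gene of the group with a log2 fold change above 0 as deposited, were Drd4, a dopamine receptor (0.030, log2 fold change 0.11), Adam33 (0.031) and Rftn1 (0.035). Adam33 was above background on no exosome array and Rftn1 on no array, so their likeness is to background signal.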

How the data were processed

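The deposited values were log2 expression per transcript cluster. Affymetrix Expression Console, RMA and the genome build mm8 are named, per the submitters' processing notes, without versions, and per the series text the authors averaged core probesets of a gene. After this processing the ranges of the 2 groups still differed, with a mean 75th percentile of 7.13 on exosome arrays and 8.53 on cell arrays. The deposited scale thus did not bring the 8 arrays to like distributions. Genes were named through the platform annotation, and the cluster with the highest mean over the 8 arrays stood for a gene. Groups were compared with limma 3.58.1 in R 4.3.3 (lmFit, eBayes, two-sided, Benjamini-Hochberg adjustment over 23332 clusters, no filter on dim signals). Folds are powers of 2 of differences in mean log2 value. A gene above background on no exosome array is given as a bound, its mean in cells minus the mean of the exosome arrays' thresholds. All such bounds are on the deposited scale, were not computed under the other scalings and need not hold there. Pairs of genes were compared with SciPy 1.17.1. Arrays have no read depth, and their number limits the precision. In simulated data of 23332 clusters for exosome against cell, 18% of 50 clusters changed by a log2 value of 0.5 were recovered, 64% at 1, 80% at 2 and 94% at 3, with 5 of 23132 unchanged clusters called. In the real comparison 59.3% of clusters were called, far more than were changed in the simulation, so these shares need not hold for it. The genes and lists were chosen with earlier results of these data known. All 9 measured genes are named. From each list the text takes up to 3 called genes with the largest change in the direction of the list median and the 1 with the largest change against it, and for the highest and lowest log2 fold change of the 9 the 3 genes of closest profile. Figures were drawn with matplotlib 3.10.9.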

Additional observations from a re-analysis of the deposited data

Results flagged for a closer look

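Among 18 sets of 4 arrays (9 genes in each group), 1 had a sample far from the others. Jund in exosomes had 7.61 in sample 1 beside 8.05 to 8.10 in the other 3, and the gap was 0.895 of the whole range, past Dixon's critical value at 95% for 4 samples. Chance gives about 1 such set in 20. Without that sample the log2 fold change of Jund was -1.44 with an adjusted p of 1.38e-06 by limma.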

How the results depend on the processing

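Of the 9 genes, 7 were called lower as deposited. This number was 5 after quantile normalization, 4 after cyclic loess, 9 after centring on background genes and 7 after centring on array medians. The number called higher, 0 as deposited, was 3 with quantile normalization, 3 with cyclic loess and 1 when arrays were centred on their medians. Leaving out each array in turn kept 7 lower and 0 higher. Over all transcript clusters 3818 were higher and 10008 lower. Quantile normalization gave 6627 higher and 6582 lower. Cyclic loess gave 6799 higher and 6490 lower. Centring on background genes gave 1061 higher and 16640 lower. Those called higher were 7938 after centring on array medians, 1479 with the filter on dim signals, 2346 at an adjusted p below 0.01 and 1268 at a change of at least 2-fold. Of all calls 27.6% were higher on the deposited scale, 50.2% with quantile normalization and 51.2% with cyclic loess. Centring gave 47.5% on array medians and 5.99% on background genes.

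The log2 fold change of Junb turned to 0.63 after quantile normalization and 0.65 after cyclic loess. That of Fosl1 turned to -0.46 after centring on background genes. That of Fosl2, near 0 as deposited, was 0.25 when arrays were centred on their medians, 1.27 with quantile normalization and 1.43 with cyclic loess, and it lay between -0.12 and 0.03 when 1 array was left out, with values above 0 without exosome replicate 1 (0.0307), exosome replicate 2 (0.0094) or cell replicate 1 (0.029), none of them called. The cause of these turns was not tested. With the replicate number as a block 7 genes were lower and 0 higher, as without it, and the block changed no call among the 9. Same-numbered samples did not deviate together (correlations of -0.06, 0.0013, -0.03 and -0.01), and no exosome sample correlated best with the cell sample of its own number. The trended and robust prior, array weights, the filter on dim signals and the stricter threshold also left all 9 calls as they were. At a change of at least 2-fold 6 of the 9 were lower. With the 90th or 99th percentile as background, or with 3 of 4 arrays required, 5 to 8 genes were above background in exosomes and 8 or 9 in cells. Each gene had 1 transcript cluster, so no other cluster could be tried. Signal over background was lower on the exosome arrays, which limits how far a fall can be measured there.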
